A study of Mus musculus with 8 samples.

Results

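The gene set comprised 10 genes that encode cytokines and growth factors of the thymic stroma, Il7, Kitl, Flt3l, Il15, Tslp, Il33, Il18, Vegfa, Lif and Csf1, of 55450 genes in the expression table. They were chosen by name. RNA-sequencing was analysed in 8 libraries of thymic epithelial cells (TECs) sorted from embryos at embryonic day 17 that carried RANK-Venus and CCL21a-tdTomato reporters. The study asked how TECs that express the chemokine CCL21 differ from TECs that express RANK, the receptor through which medullary TECs are induced. Sorted CD45-EpCAM+ cells were CCL21+RANK- (tdTomato+Venus-, 3 libraries), CCL21-RANK+ (tdTomato-Venus+, 3 libraries) or CCL21-RANK- (negative for both reporters, 2 libraries). All 3 populations came from embryos with both reporters, tdTomato was knocked into the Ccl21a locus, and reporter fluorescence rather than a transcript set the gates. The labels do not say whether replicates came from separate litters, so that p-values measure only the spread between these libraries.

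Ccl21a and Tnfrsf11a, the genes that the reporters stand for, were highest in the populations sorted for them. Levels are given as RPKM, reads per kilobase of exon scaled to the total of the library. Ccl21a, whose reads can be shared with near-identical copies, was at 561, 346 and 305 RPKM in CCL21+RANK- TECs, at 152, 95.9 and 78.2 RPKM in CCL21-RANK+ TECs and at 6.88 and 8.87 RPKM in CCL21-RANK- TECs. Tnfrsf11a, which encodes RANK, was at 8.78 to 10.3 RPKM, 93.1 to 111 RPKM and 2.26 to 2.62 RPKM in the same order. Ccl21a was also called higher in CCL21-RANK+ TECs, which were sorted as negative for its reporter, than in the CCL21-RANK- population (log2 fold change 3.66 ± 0.35, edgeR adjusted p = 2.49e-05). The epithelial genes Epcam and Foxn1 were at 49.5 RPKM or more in every library. Library totals ranged from 42751839 to 71625282 counts. Because the libraries were made from sorted populations in bulk, fewer cells of a type and less RNA per cell cannot be told apart in any value below.

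Thymocytes depend on signals from the epithelium that surrounds them. Interleukin 7, stem cell factor (the product of Kitl) and FLT3 ligand support the survival and expansion of early T cell progenitors, interleukin 15 supports innate-like and memory lymphocytes, and TSLP acts through a receptor that shares a chain with the interleukin 7 receptor. Interleukins 33 and 18 are alarmins that belong to the interleukin 1 family, and VEGF-A, LIF and CSF1 act on blood vessels, on epithelial and stem cells, and on macrophages.

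The mean level was highest in CCL21+RANK- TECs for 5 genes (Il7, Flt3l, Il15, Vegfa and Csf1), in CCL21-RANK+ TECs for 4 genes (Tslp, Il33, Il18 and Lif) and in CCL21-RANK- TECs for Kitl. Of the 10 genes, 7 exceeded 1 RPKM in at least 1 library, whereas Tslp, Il33 and Il18 stayed under 1 RPKM in every library. All 10 genes passed the filter on low counts, Tslp and Il18 only through the CCL21-RANK+ libraries.

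**Figure D1:**
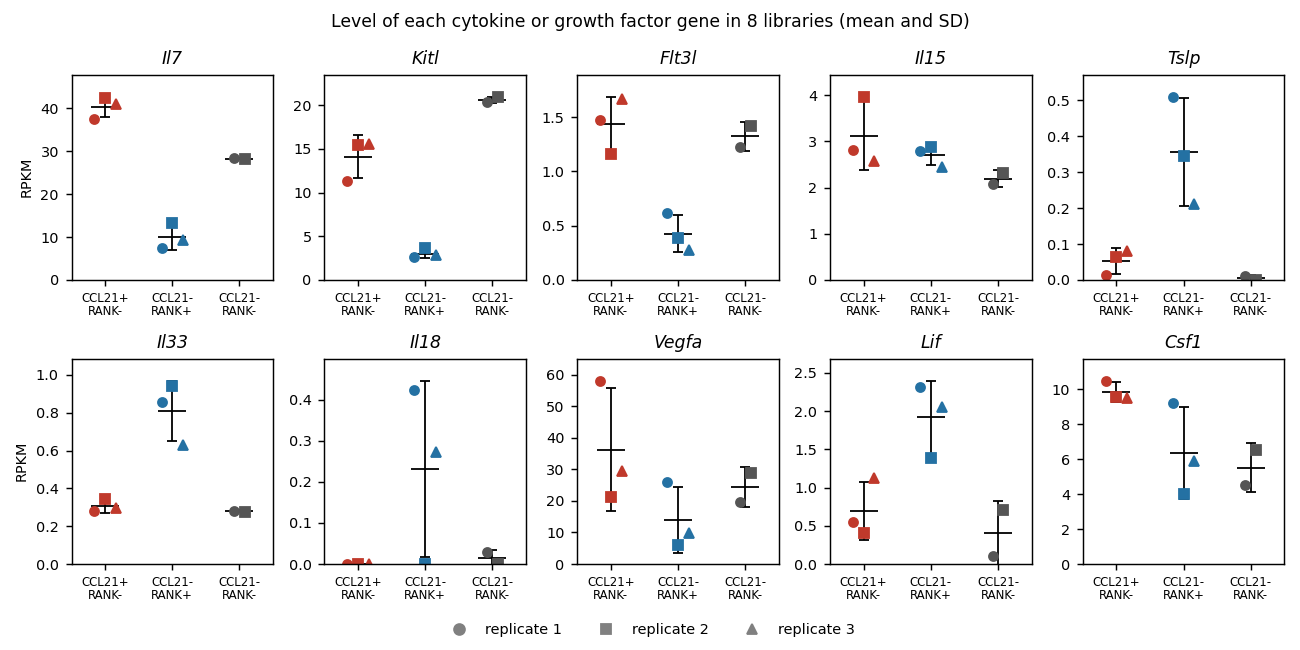
Level of each gene in each library. The y axes show RPKM on separate linear scales from 0, points are libraries with the shape giving the replicate number, and black lines give the mean and SD of 3, 3 and 2 libraries, cut at 0. Il7, Kitl and Flt3l were lowest in all 3 CCL21-RANK+ libraries, and Tslp and Il33 were highest there.

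Interleukin 7 transcripts were 4.34-fold more abundant in CCL21+RANK- TECs than in the CCL21-RANK+ population and did not pass the test against CCL21-RANK- TECs. Il7 (GRCm38 chr3:7569994-7613760, minus strand) was at 37.6, 42.3 and 41.0 RPKM in CCL21+RANK- TECs, at 7.54, 13.3 and 9.21 RPKM in CCL21-RANK+ TECs and at 28.3 and 28.2 RPKM in CCL21-RANK- TECs. The CCL21-RANK+ libraries lay below all others, and no 2 groups overlapped. The log2 fold change of CCL21+RANK- over CCL21-RANK+ TECs was 2.12 ± 0.22 (SE, edgeR adjusted p = 3.3e-05). CCL21-RANK+ TECs were also lower than CCL21-RANK- TECs, with a log2 fold change of -1.60 ± 0.23 (edgeR adjusted p = 0.000358). CCL21+RANK- over CCL21-RANK- TECs gave 0.51 ± 0.24 with an adjusted p of 0.212 from edgeR. The antisense gene Gm16685 shares 105 exon bases with Il7 on the opposite strand and held 548 to 1568 counts per library, against 2230 to 12801 counts of Il7. Gm16685 had its 1568 counts in a CCL21-RANK+ library, where Il7 had 2445.

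Kitl, which encodes the ligand of KIT, had the largest fold changes among the called genes of the set in both comparisons with CCL21-RANK+ TECs. Kitl (chr10:100015630-100100416, plus strand) was at 11.3, 15.5 and 15.6 RPKM in CCL21+RANK- TECs, at 2.59, 3.65 and 2.85 RPKM in CCL21-RANK+ TECs and at 20.4 and 20.9 RPKM in CCL21-RANK- TECs. The 3 groups did not overlap, with CCL21-RANK- TECs on top. The level was 5.05-fold higher in CCL21+RANK- TECs than in the CCL21-RANK+ population (log2 fold change 2.34 ± 0.19, edgeR adjusted p = 7e-06). It was 7.36-fold higher in CCL21-RANK- TECs than in the CCL21-RANK+ population (log2 fold change of CCL21-RANK+ over CCL21-RANK- -2.88 ± 0.20, edgeR adjusted p = 4e-06). CCL21+RANK- over CCL21-RANK- TECs gave -0.54 ± 0.20, which passed at the unadjusted p of 0.0207 in edgeR but not after adjustment (0.115).

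Flt3l, the ligand of the progenitor receptor FLT3, was also lowest in CCL21-RANK+ TECs, at lower levels. It was at 1.47, 1.16 and 1.67 RPKM in CCL21+RANK- TECs, at 0.617, 0.391 and 0.277 RPKM in CCL21-RANK+ TECs and at 1.23 and 1.42 RPKM in CCL21-RANK- TECs. The CCL21-RANK+ libraries lay below the other 5, which overlapped with each other. The log2 fold change was 1.86 ± 0.31 for CCL21+RANK- over CCL21-RANK+ TECs (edgeR adjusted p = 0.000722) and -1.75 ± 0.33 for CCL21-RANK+ over CCL21-RANK- TECs (edgeR adjusted p = 0.00181). Flt3l (chr7:45129788-45136432, minus strand) shares 856 exon bases with the overlapping gene Gm45713 on the same strand, so the division of reads between these genes is uncertain. Flt3l held 340, 207 and 357 counts in CCL21+RANK- TECs, 137, 76 and 46 in CCL21-RANK+ TECs and 323 and 394 in CCL21-RANK- TECs. With the reads of both genes summed, the counts were 362, 264 and 357, then 234, 124 and 103, then 425 and 459. Scaled to the library totals, the ratio to CCL21-RANK+ TECs fell on summing from 3.35 to 2.04 in CCL21+RANK- TECs and from 3.10 to 2.13 in CCL21-RANK- TECs, and the summed counts were not tested. Il7, Kitl and Flt3l were called in both comparisons that involved CCL21-RANK+ TECs and in neither direction between the CCL21+RANK- and CCL21-RANK- populations.

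Upstream sequences from RefSeq (GRCm38.p6, 250 bases before to 50 bases after the annotated start) were matched for 7 of the 10 genes, all but Il7, Il15 and Tslp. They were searched on both strands for GACGC, the core bound by FOXN1, for GAAANNGAA, an interferon-stimulated response element, and for ACGTG, the hypoxia response element core. Of all 32851 windows of this length, 27.2%, 8.56% and 19.6% held these letters. FOXN1 directs the epithelial program of the thymus. Upstream sequences of 2 genes are shown, Flt3l for a gene low in CCL21-RANK+ TECs and Lif for the gene called higher there. They end before the first annotated transcript base, are written 5′ to 3′ on the strand of the gene, and carry the matched letters in capitals.
Flt3l, chr7:45136433-45136682, minus strand: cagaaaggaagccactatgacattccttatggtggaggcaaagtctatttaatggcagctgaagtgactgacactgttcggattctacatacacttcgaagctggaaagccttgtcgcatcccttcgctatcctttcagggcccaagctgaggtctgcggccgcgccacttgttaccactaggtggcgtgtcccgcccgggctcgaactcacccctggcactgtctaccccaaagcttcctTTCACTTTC
Lif, chr11:4257318-4257556, plus strand: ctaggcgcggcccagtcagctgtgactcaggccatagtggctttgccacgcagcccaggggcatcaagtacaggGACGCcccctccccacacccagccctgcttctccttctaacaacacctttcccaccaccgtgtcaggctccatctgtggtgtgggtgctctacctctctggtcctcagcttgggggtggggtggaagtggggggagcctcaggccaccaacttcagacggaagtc
The Flt3l sequence held GAAANNGAA on the opposite strand, starting 9 bases before the RefSeq start. The Lif sequence held GACGC 176 bases before its RefSeq start, and the Kitl window held GACGC 183 bases before its own, which falls inside the gene span given above. Of the Vegfa windows, the upstream one held GAAANNGAA and the downstream one ACGTG, and the windows of Csf1, Il18 and Il33 held none of the motifs.

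Il15, whose product is presented in trans by the receptor chain IL15RA, was not called in any comparison. It was at 2.81, 3.97 and 2.58 RPKM in CCL21+RANK- TECs, at 2.80, 2.87 and 2.45 RPKM in CCL21-RANK+ TECs and at 2.07 and 2.32 RPKM in CCL21-RANK- TECs. CCL21+RANK- and CCL21-RANK+ libraries overlapped, and the CCL21-RANK- libraries lay just below both. The log2 fold changes were 0.34 ± 0.25, 0.53 ± 0.28 and 0.19 ± 0.28 for CCL21+RANK- over CCL21-RANK+, CCL21+RANK- over CCL21-RANK- and CCL21-RANK+ over CCL21-RANK- TECs. None was called by edgeR (adjusted p = 0.274, 0.281 and 0.61).

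Tslp, an epithelial cytokine that acts on dendritic cells and lymphocytes, was detected at low levels and mainly in CCL21-RANK+ TECs. The CCL21-RANK+ libraries held 39, 23 and 12 counts, the CCL21+RANK- libraries 1, 4 and 6 counts and the CCL21-RANK- libraries 1 and 0 counts. All 3 CCL21-RANK+ libraries lay above the other 5. The highest level was 0.511 RPKM, under the 1 RPKM that a call required. Tslp passed the filter on low counts only through the CCL21-RANK+ libraries, so its p-values give no test of that direction. In edgeR the adjusted p was 0.0474 against CCL21+RANK- TECs and 0.0101 against CCL21-RANK- TECs. The former was 0.129 with the replicate number as a block and 0.0805 without the filter on low counts, and of the omissions of a single library, that of CCL21-RANK+ library 3 alone left it under 0.05 (0.0466 in edgeR). The latter was 0.0945 without CCL21-RANK- library 2. Summed over libraries and scaled to their totals, the count was 7.20-fold that of CCL21+RANK- TECs (95% interval 3.80 to 15.1) and 68.5-fold that of CCL21-RANK- TECs, where the interval of 11.9 to 2743 rests on a sum of 1 count. These intervals are exact conditional ones and cover counting error only.

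The alarmin genes were both low. Il33 (chr19:29925114-29960718, plus strand) was at 0.279, 0.346 and 0.295 RPKM in CCL21+RANK- TECs, at 0.859, 0.940 and 0.632 RPKM in CCL21-RANK+ TECs and at 0.283 and 0.276 RPKM in CCL21-RANK- TECs. The CCL21-RANK+ libraries lay above the other 5. The log2 fold change was -1.28 ± 0.39 for CCL21+RANK- over CCL21-RANK+ TECs (edgeR adjusted p = 0.0186) and 1.42 ± 0.44 for CCL21-RANK+ over CCL21-RANK- TECs (edgeR adjusted p = 0.0242). With a mean of 0.810 RPKM in CCL21-RANK+ TECs, Il33 was under the 1 RPKM that a call required. Against CCL21+RANK- TECs its edgeR adjusted p exceeded 0.05 without CCL21+RANK- library 1 (0.051) or 3 (0.054) or CCL21-RANK+ library 2 (0.0685). Against CCL21-RANK- TECs it did so without CCL21-RANK+ library 2 (0.0703), without either CCL21-RANK- library (0.102 and 0.143) and without the filter (0.0512). Il18 (chr9:50554827-50581840, plus strand) had 25, 0 and 12 counts in CCL21-RANK+ TECs, 0 counts in all 3 CCL21+RANK- libraries and 2 and 0 counts in CCL21-RANK- TECs. A CCL21-RANK+ library without a count made the groups overlap, and Il18 was not called. Because Il18 passed the filter on low counts only through CCL21-RANK+ libraries, its p-values give no test of that direction. Its edgeR adjusted p of 0.0417 against CCL21+RANK- TECs was 0.0778 with the replicate block, 0.0673 with the DESeq2 Wald test and from 0.0108 to 0.0821 when libraries were left out in turn and the gene stayed in the fit. A sum of 0 counts allows up to 3 counts, and against that floor over the group the summed CCL21-RANK+ count was at least 13.2-fold higher than the CCL21+RANK- count. This bound covers counting error only, not the spread between libraries, and gives no test of that direction.

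Vegfa, the vascular growth factor gene, was abundant and varied between replicates, with a coefficient of variation of 53.3% among CCL21+RANK- libraries and 76.0% among CCL21-RANK+ libraries. Vegfa (chr17:46016993-46032369, minus strand) was at 58.1, 21.3 and 29.4 RPKM in CCL21+RANK- TECs, at 25.9, 5.90 and 9.95 RPKM in CCL21-RANK+ TECs and at 19.8 and 28.8 RPKM in CCL21-RANK- TECs. The library numbered 1 was the highest of its group in both reporter-positive populations, and the 2 groups overlapped. CCL21+RANK- TECs were 2.89-fold higher than CCL21-RANK+ TECs (log2 fold change 1.53 ± 0.49, edgeR adjusted p = 0.0239). Neither population was called against CCL21-RANK- TECs, with log2 fold changes of 0.58 ± 0.54 and -0.95 ± 0.53 (edgeR adjusted p = 0.567 and 0.166). The call against CCL21-RANK+ TECs was lost when CCL21+RANK- library 1 (edgeR adjusted p = 0.0951), CCL21-RANK+ library 2 (0.0617) or CCL21-RANK+ library 3 (0.106) was left out, with log2 fold changes of 1.01, 1.18 and 1.29, and with the DESeq2 Wald test (log2 fold change 1.41, adjusted p = 0.0713). Without CCL21-RANK+ library 1 alone it was 2.27 (edgeR adjusted p = 0.00156), and CCL21-RANK+ TECs were then called below CCL21-RANK- TECs (-1.68, adjusted p = 0.0102). The call stood when both libraries numbered 1 were left out together, with a log2 fold change of 1.75 (edgeR adjusted p = 0.000235), where CCL21-RANK+ over CCL21-RANK- TECs gave -1.68 (adjusted p = 0.000307). With the replicate number as a block, CCL21+RANK- over CCL21-RANK+ TECs gave 1.60 (edgeR adjusted p = 0.00616). In that fit CCL21-RANK+ over CCL21-RANK- TECs gave -1.14 and was not called (edgeR adjusted p = 0.0614).

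Other genes were highest in the same libraries as Vegfa. Among genes that respond to low oxygen, the glucose transporter gene Slc2a1 was at 46.2 RPKM in CCL21+RANK- library 1 against 19.1 and 27.8 RPKM in the others of its group, and at 39.8 RPKM in CCL21-RANK+ library 1 against 25.2 and 26.9 RPKM. Egln3, a prolyl hydroxylase gene, was at 10.1 RPKM against 3.63 and 5.15 RPKM in CCL21+RANK- TECs and at 7.74 RPKM against 3.78 and 3.08 RPKM in CCL21-RANK+ TECs. Bnip3, Pgk1 and Ldha were highest in the same libraries. Slc2a1, Egln3 and Bnip3 were, like Vegfa, higher in the CCL21-RANK- library numbered 2 than in that numbered 1. Pgk1 (190 and 193 RPKM) and Ldha (177 and 192 RPKM) differed little between CCL21-RANK- libraries 1 and 2. Their order there depends on the scaling, as Gm26917 held 17.3% and 6.89% of the counts of these libraries. After subtraction of group means, Vegfa correlated across the 8 libraries with Bnip3 (Pearson r = 0.93), Egln3 (0.87) and Slc2a1 (0.86), genes taken from a list of regulators after their values were seen. Of the other genes named here, Pgk1 and Ldha gave 0.66 and 0.61, Hif1a, which encodes the oxygen-regulated factor HIF-1α, -0.56, and Stat5a, a gene of cytokine signalling, 0.89. The regulators Arnt, the partner of HIF-1α, and Foxn1 gave -0.87 and -0.83. The parathyroid genes Chga, Pth and Gcm2 gave 0.95, 0.78 and 0.51. The same correlation was -0.96 for Kitl, -0.87 for Il7 and 0.85 for Csf1. These values rest on 8 libraries with 3 group means removed, and the share of all genes that reach them is not given here. In CCL21+RANK- TECs the parathyroid gene Pth was at 3000, 848 and 906 RPKM, and the summed level of 4 parathyroid genes was 7120, 1750 and 1960 RPKM, with Chga the most abundant. The sum was 24.9, 11.1 and 12 RPKM in CCL21-RANK+ TECs and 23.8 and 21.6 RPKM in CCL21-RANK- TECs. All 4 were called higher in CCL21+RANK- TECs than in the CCL21-RANK+ and CCL21-RANK- populations, beside 15.4% and 4.35% of all genes. The part of low-oxygen genes and of parathyroid transcripts in the Vegfa values was not tested.

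**Figure D2:**
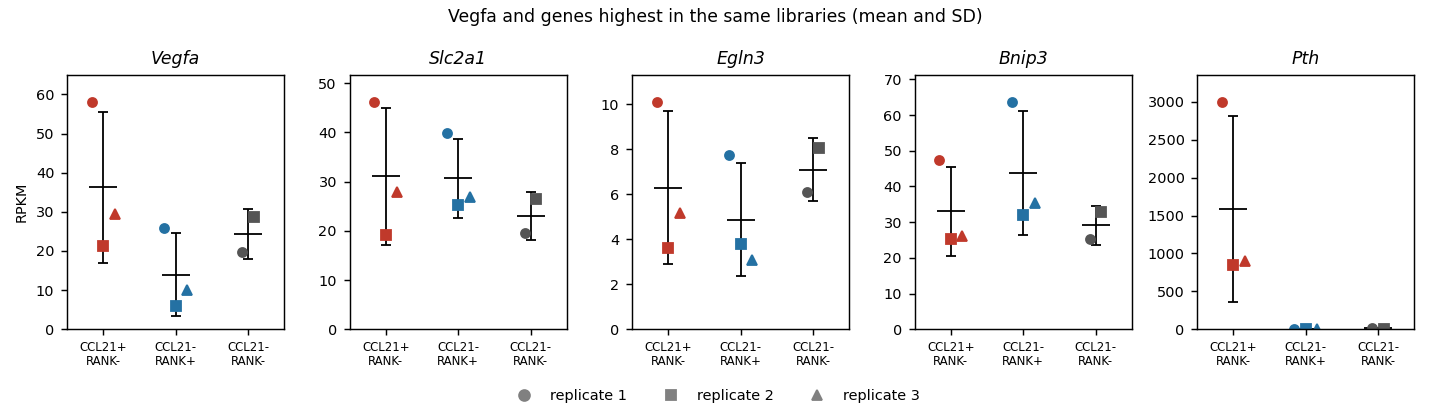
Vegfa, 3 genes that respond to low oxygen and the parathyroid hormone gene Pth in each library. The y axes show RPKM on separate linear scales from 0, point shapes give the replicate number, and black lines give mean and SD. Replicate 1 is the highest point of both reporter-positive populations for Vegfa, Slc2a1, Egln3 and Bnip3, and Pth is at 3000 RPKM in CCL21+RANK- replicate 1.

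Lif, which encodes leukaemia inhibitory factor, was the gene of the set called higher in CCL21-RANK+ TECs. Lif (chr11:4257557-4272514, plus strand) was at 0.551, 0.405 and 1.13 RPKM in CCL21+RANK- TECs, at 2.32, 1.39 and 2.05 RPKM in CCL21-RANK+ TECs and at 0.106 and 0.706 RPKM in CCL21-RANK- TECs. All 3 CCL21-RANK+ libraries lay above the other 5. CCL21-RANK+ TECs were 4.47-fold above CCL21-RANK- TECs (log2 fold change 2.16 ± 0.68, edgeR adjusted p = 0.024). This call was lost without CCL21-RANK+ library 3 (log2 fold change 2.15, adjusted p = 0.0536 in edgeR) and without CCL21-RANK- library 1 (1.38, adjusted p = 0.0895), and the log2 fold change was 3.98 without CCL21-RANK- library 2 (adjusted p = 0.00243). CCL21+RANK- over CCL21-RANK+ TECs gave -1.37 ± 0.57 and missed the threshold (edgeR adjusted p = 0.0651). CCL21+RANK- over CCL21-RANK- TECs gave 0.79 ± 0.64 (edgeR adjusted p = 0.503), and from 0.02 without CCL21-RANK- library 1 to 2.60 without library 2 (adjusted p = 0.0656).

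Csf1, the macrophage growth factor gene, was at 10.5, 9.55 and 9.49 RPKM in CCL21+RANK- TECs, at 9.20, 4.02 and 5.90 RPKM in CCL21-RANK+ TECs and at 4.55 and 6.5 RPKM in CCL21-RANK- TECs. The CCL21+RANK- libraries lay above the other 5, by a small margin over CCL21-RANK+ library 1. Csf1 (chr3:107741048-107760469, minus strand) was 1.71-fold higher in CCL21+RANK- TECs than in the CCL21-RANK+ population (log2 fold change 0.77 ± 0.23, edgeR adjusted p = 0.0173). The call was lost without CCL21+RANK- library 2 (log2 fold change 0.71), CCL21-RANK+ library 2 (0.55) or CCL21-RANK+ library 3 (0.68). CCL21+RANK- over CCL21-RANK- TECs gave 0.85 ± 0.26, with an unadjusted p of 0.00903 and an adjusted p of 0.0672 in edgeR. CCL21-RANK+ over CCL21-RANK- TECs gave 0.08 ± 0.26 (edgeR adjusted p = 0.824).

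Within a population, Il7 and Vegfa headed the set. Il7 took 38.0% of the summed RPKM of the 10 genes in CCL21+RANK- TECs, 25.2% in CCL21-RANK+ TECs and 34.1% in CCL21-RANK- TECs. Vegfa took 34.1%, 35.0% and 29.3%, and Kitl 13.3%, 7.62% and 24.9%. In CCL21+RANK- TECs the order of mean levels was Il7, Vegfa, Kitl, Csf1, Il15, Flt3l, Lif, Il33, Tslp and Il18, and only Il7 and Vegfa overlapped among neighbours. In CCL21-RANK+ TECs the order was Vegfa, Il7, Csf1, Kitl, Il15, Lif, Il33, Flt3l, Tslp and Il18, and overlaps joined Vegfa with Il7, Il7 with Csf1, Kitl with Il15, Flt3l with Tslp and Tslp with Il18. Vegfa was at 25.9, 5.90 and 9.95 RPKM there and Il7 at 7.54, 13.3 and 9.21 RPKM. The first place of Vegfa in that population thus rested on library 1, which also raised its share. In CCL21-RANK- TECs Vegfa overlapped with Il7 and with Kitl at the top, ahead of Csf1, Il15 and Flt3l, and below these Lif overlapped with Il33, and Il18 with Tslp.

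Counted together, 5 of the 10 genes were called higher in CCL21+RANK- TECs than in the CCL21-RANK+ population (Il7, Kitl, Flt3l, Vegfa and Csf1) and 0 were called higher in CCL21-RANK+ TECs. A call required an edgeR adjusted p under 0.05, a mean over 1 RPKM in the higher population and more than a 1.5-fold difference. Of all 21451 genes tested, the calls favoured CCL21+RANK- TECs in 15.4% and CCL21-RANK+ TECs in 15.4%. Tslp, Il33 and Il18 had an adjusted p under 0.05 toward CCL21-RANK+ TECs in this fit, though not under every alternative as given above, and stayed under 1 RPKM. For Tslp and Il18 the filter on low counts was passed only through the CCL21-RANK+ libraries, so their p-values give no test of that direction. In all, 8 genes passed at the adjusted p alone, as did 53.7% of all genes, and 9 at an unadjusted p under 0.05, as did 59.1%. Both counts include Tslp and Il18. The DESeq2 Wald test called Il7, Kitl, Flt3l and Csf1 toward CCL21+RANK- TECs and Lif toward CCL21-RANK+ TECs (log2 fold change -1.46, adjusted p = 0.0233), and 30.8% of all genes in either direction. The median log2 fold change of the set was 0.56 and that of all genes -0.11. The libraries did not overlap for 7 genes of the set and for 59.8% of all genes. Leaving out CCL21-RANK+ library 2 or CCL21-RANK+ library 3 left 3 called genes, Il7, Kitl and Flt3l.

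Between CCL21+RANK- and CCL21-RANK- TECs, edgeR called 0 of the 10 genes, against 8.02% of all genes tested. At an unadjusted p under 0.05, 2 genes passed (Kitl and Csf1), as did 25.1% of all genes. The DESeq2 Wald test called 1 gene of the set (Csf1, log2 fold change 0.90, adjusted p = 0.0166) and 9.73% of all genes. The median log2 fold change over the 9 genes with more than 3 counts in a group was 0.53, that of all genes was 0, and libraries did not overlap for 5 genes and for 38.9% of all genes. Between CCL21-RANK+ and CCL21-RANK- TECs, 1 gene was called higher in CCL21-RANK+ TECs (Lif), where 14.4% of all genes were. Il7, Kitl and Flt3l, 3 genes, were called higher in CCL21-RANK- TECs, where 15.1% of all genes were. The median log2 fold change of the set was 0.13 and that of all genes 0.06, and libraries did not overlap for 7 genes and for 65.7% of all genes. The comparisons share libraries, so their calls are not independent of each other. An exact permutation test of 3 against 3 or 3 against 2 libraries cannot give a two-sided p below 0.1.

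**Figure D3:**
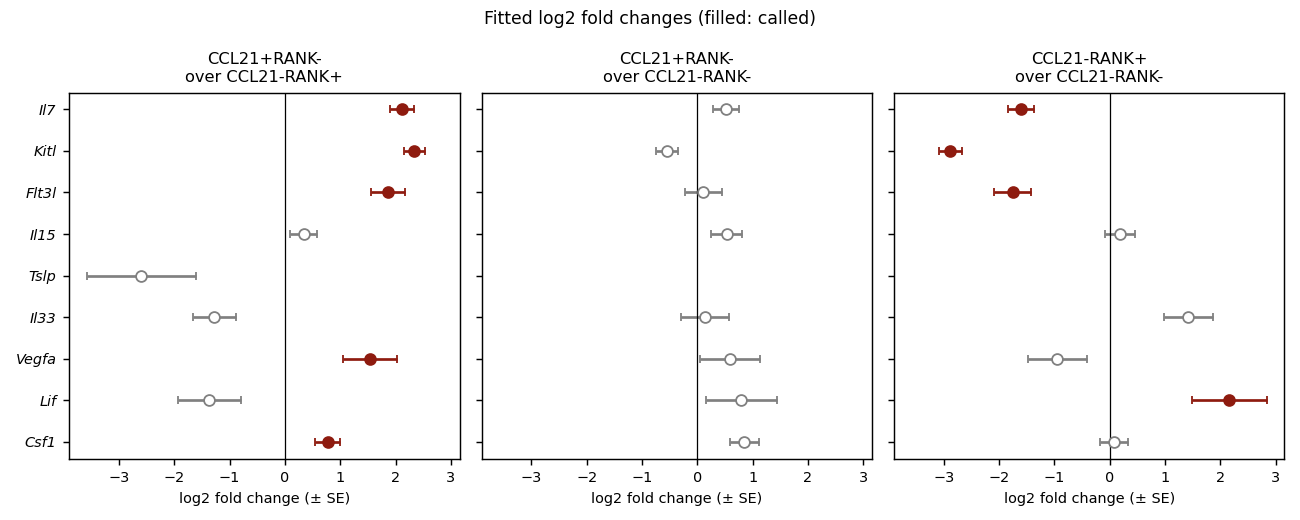
Fitted log2 fold changes with their SE from edgeR for the 3 comparisons on a common x axis, positive where the first-named population is higher. Filled points are called. Il18 is left out, and Tslp is shown only against CCL21-RANK+ TECs, because CCL21-RANK- TECs held 1 count. Il7, Kitl and Flt3l are called in the left and right panels, and no gene is called in the middle one.

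Receptor genes were called in both directions. Of 18 receptor genes tested, 5 were called higher in CCL21+RANK- TECs (Lifr, Il6st, Crlf2, Il15ra and Il1rap) and 7 in CCL21-RANK+ TECs (Il2rg, Il1rl1, Il2rb, Il18r1, Kit, Nrp2 and Csf1r), beside 15.4% of all genes in each direction. Il1rl1 and Il2rb held at most 4 and 6 counts in a library of the other populations. Both passed the filter on low counts only through the CCL21-RANK+ libraries, so their calls toward CCL21-RANK+ TECs give no test of that direction. Against CCL21-RANK- TECs, 3 were higher in CCL21+RANK- TECs by the call (Lifr, Il15ra and Il6st), where 4.35% of all genes were, and Kit was called higher in CCL21-RANK- TECs, as were 3.66% of all genes. Between CCL21-RANK+ and CCL21-RANK- TECs, CCL21-RANK+ TECs had 7 called higher and 4 called lower, beside 14.4% and 15.1% of all genes. The medians of the log2 fold changes were -4.11, 0.58 (over 17 genes with more than 3 counts in a group) and 4.32 for the comparisons in the order given, beside -0.11, 0 and 0.06 for all genes. The first and last of these medians include genes that passed the filter only through the CCL21-RANK+ libraries, Il7r among them.

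Kit, the receptor of the Kitl product, was highest in CCL21-RANK+ TECs, where its ligand gene was lowest. It was at 0.528, 0.554 and 0.452 RPKM in CCL21+RANK- TECs, at 17, 14.9 and 16.7 RPKM in CCL21-RANK+ TECs and at 1.16 and 1.33 RPKM in CCL21-RANK- TECs. The 3 groups did not overlap, and Kit was also called lower in CCL21+RANK- TECs than in the CCL21-RANK- population (log2 fold change -1.27 ± 0.14). The log2 fold change of CCL21+RANK- over CCL21-RANK+ TECs was -4.86 ± 0.14 (edgeR adjusted p = 6.64e-08), beside 2.34 for Kitl. Lifr, the receptor chain for LIF, was at 130, 90.8 and 109 RPKM in CCL21+RANK- TECs, at 16, 26.4 and 20.8 RPKM in CCL21-RANK+ TECs and at 47.6 and 48.3 RPKM in CCL21-RANK- TECs. It had the highest mean of the receptor genes except in CCL21-RANK+ TECs, where the mean of Il2rg was above it, and was called higher in CCL21+RANK- TECs against both other populations (log2 fold change 2.49 ± 0.22 and 1.20 ± 0.24), together with its signal-transducing partner Il6st (2.10 ± 0.12 and 0.79 ± 0.14). Its ligand gene Lif was at its highest in CCL21-RANK+ TECs.

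Il15ra was at 17.8, 17.6 and 14.6 RPKM in CCL21+RANK- TECs, at 8.70, 7.29 and 6.59 RPKM in CCL21-RANK+ TECs and at 8.80 and 9.01 RPKM in CCL21-RANK- TECs. The presenting chain was thus called higher in CCL21+RANK- TECs (log2 fold change 1.28 ± 0.14 and 0.91 ± 0.16) where Il15 itself was not. Crlf2, the chain that binds TSLP, was at 6.01, 3.64 and 5.29 RPKM in CCL21+RANK- TECs, at 1.73, 0.814 and 1.35 RPKM in CCL21-RANK+ TECs and at 4.62 and 4.87 RPKM in CCL21-RANK- TECs, lowest where Tslp was highest. Il7r and Flt3, which lymphoid progenitors use to receive the Il7 and Flt3l products, stayed under 1 RPKM in every library, with their highest values of 0.903 and 0.786 RPKM in CCL21-RANK+ TECs.

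**Figure D4:**
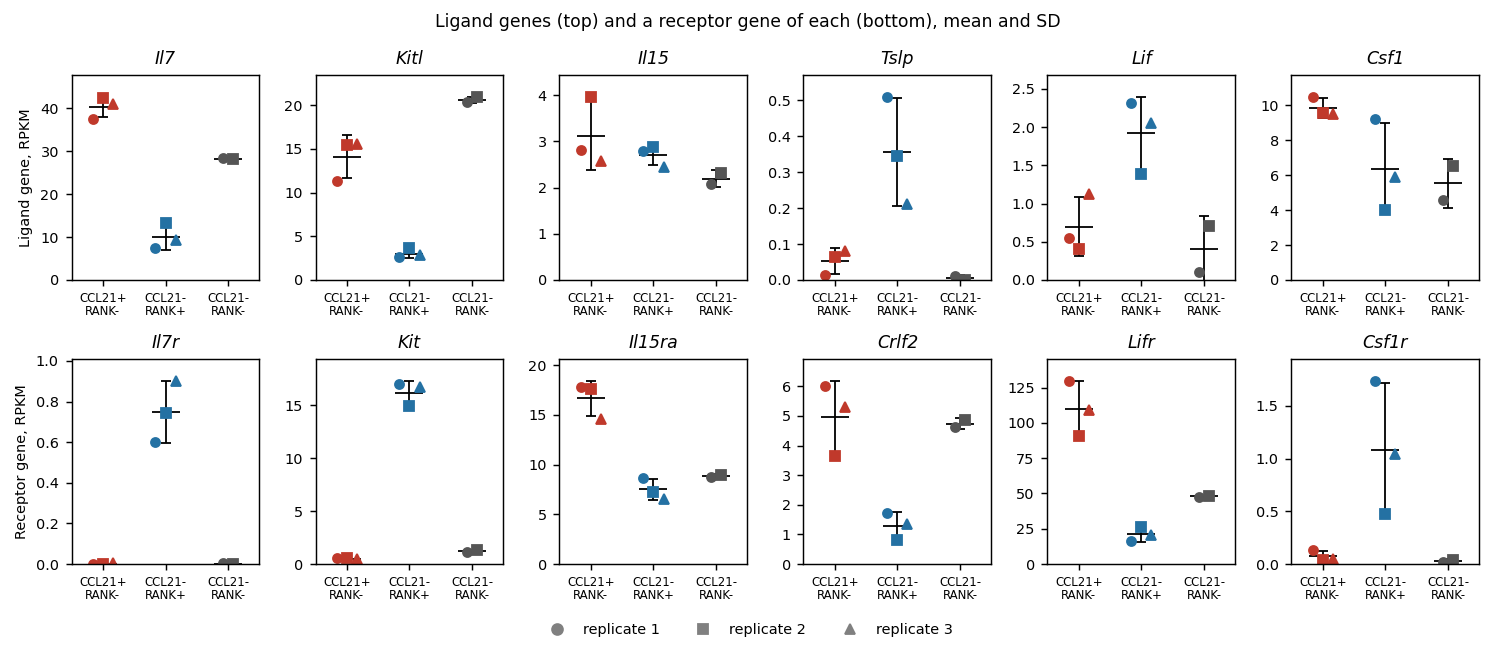
Ligand genes (top row) above a receptor gene of each (bottom row) in every library. The y axes show RPKM on separate linear scales from 0, point shapes give the replicate number, and black lines give mean and SD, cut at 0. Kit and Csf1r are highest in CCL21-RANK+ TECs and Lifr, Il15ra and Crlf2 are lower there than in CCL21+RANK- TECs.

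Besides Kit, the receptors whose edgeR call favoured CCL21-RANK+ over CCL21+RANK- TECs comprised Il2rg, Il18r1, Il1rl1, Nrp2, Il2rb and Csf1r. For Il1rl1 and Il2rb the call gives no test of that direction, as stated above. Levels below are given first for the CCL21-RANK+ population. Il2rg, the common chain of the interleukin 2 family of receptors, was at 45.6, 27.8 and 29.3 RPKM there and at most 0.246 RPKM in the other 5 libraries. Il18r1 was at 23.1, 8.52 and 11.6 RPKM there and at most 0.320 RPKM elsewhere. Il1rl1, the receptor gene for interleukin 33, was at 1.5, 0.671 and 0.981 RPKM in CCL21-RANK+ TECs and at most 0.00972 RPKM elsewhere. Nrp2, a co-receptor gene for VEGF family ligands, was at 4.84, 3.06 and 3.67 RPKM against at most 0.262 RPKM. The VEGF-A receptor genes Flt1 and Kdr, which mark endothelium, stayed under 1 RPKM in every library. Flt1 was at 0.919, 0.359 and 0.452 RPKM in CCL21-RANK+ TECs and at most 0.0499 RPKM elsewhere. Kdr was at 0.153, 0.121 and 0.0259 RPKM against at most 0.0409 RPKM. The haematopoietic gene Ptprc, which encodes the CD45 that the sort selected against, was at 0.576, 0.177 and 0.422 RPKM in CCL21-RANK+ TECs and at 0.0351 to 0.193 RPKM in the other libraries. The summed level of 12 thymocyte markers was 23.0, 10.2 and 19.3 RPKM in CCL21-RANK+ TECs, against 12.9, 5.59 and 7.37 RPKM in CCL21+RANK- TECs and against 4.07 and 3.57 RPKM in CCL21-RANK- TECs. Rag1 was the most abundant of them in the reporter-positive populations and Lck in CCL21-RANK- TECs. The summed level of 9 myeloid and dendritic markers was 62.1, 19.5 and 22.2 RPKM in CCL21-RANK+ TECs and at most 0.996 RPKM elsewhere, with Lyz2 the most abundant in CCL21-RANK+ TECs, and 4 of the 9 were under 1 RPKM in every library. Aire and Fezf2, which direct the expression of tissue-restricted genes in medullary TECs, were at 94.1 to 131 RPKM and 70.7 to 98.9 RPKM in CCL21-RANK+ TECs and at most 0.81 RPKM elsewhere. The part of other cell types and of tissue-restricted expression in the receptor values was not tested.

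Genes that release, activate or restrain these cytokines were called in both directions. Of 11, edgeR called 5 higher in CCL21+RANK- TECs (Mmp9, Nlrp3, Pycard, Socs3 and Cish) and 4 in CCL21-RANK+ TECs (Casp1, Il1rn, Adam17 and Socs1), beside 15.4% of all genes each way. Casp1, the protease that matures interleukin 18, was at 24.8, 10.8 and 11.6 RPKM in CCL21-RANK+ TECs, at 0.895, 1.29 and 1.47 RPKM in CCL21+RANK- TECs and at 0.287 and 0.270 RPKM in CCL21-RANK- TECs. Pycard, the adaptor of the inflammasome, and Nlrp3, one of its sensors, were instead called in favour of CCL21+RANK- over CCL21-RANK+ TECs (log2 fold change 0.84 ± 0.11 and 2.19 ± 0.31). Mmp9, a protease that can release the Kitl product from the membrane, was at 167, 130 and 144 RPKM in CCL21+RANK- TECs against 58.6, 31.8 and 31.3 RPKM in CCL21-RANK+ TECs. Adam17, a sheddase, was called higher in CCL21-RANK+ TECs (log2 fold change of CCL21+RANK- over CCL21-RANK+ -0.63 ± 0.12). Il18bp, which neutralises interleukin 18, was at 1.5 to 2.87 RPKM in all libraries and was not called. Against CCL21-RANK- TECs, 3 were called higher in CCL21+RANK- TECs (Casp1, Nlrp3 and Cish), beside 4.35% of all genes, and 4 were called higher and 3 lower in CCL21-RANK+ TECs, beside 14.4% and 15.1%. The medians of the log2 fold changes were 0.59, 0.61 and -0.07, beside -0.11, 0 and 0.06 for all genes.

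Among 25 relatives of the 10 genes in the same cytokine families, 20 passed the filter. Ctf1, Vegfb and Pdgfa, 3 genes, were called higher in CCL21+RANK- TECs than in the CCL21-RANK+ population, and Il23a, Csf2, Il9, Il12a and Pgf, 5 genes, in the opposite direction, beside 15.4% of all genes each way. In CCL21-RANK+ TECs Il9 was at 2.12, 0.0744 and 0.873 RPKM and Csf2 at 2.27, 0.872 and 0.497 RPKM. Only library 1 exceeded the 1 RPKM of a call for Il9 and Csf2, which had no counts in the other populations. Il12a had counts outside CCL21-RANK+ TECs in CCL21+RANK- library 1 alone (13 counts). Il9, Csf2 and Il12a passed the filter on low counts only through the CCL21-RANK+ libraries, so their calls give no test of that direction. Ctf1, which encodes cardiotrophin 1 of the LIF family, was at 14.7, 14.6 and 15.3 RPKM in CCL21+RANK- TECs, at 3.39, 4.35 and 3.91 RPKM in CCL21-RANK+ TECs and at 17 and 21.1 RPKM in CCL21-RANK- TECs, and so had the order of Kitl rather than that of Lif. Vegfb, a relative of Vegfa, was at 17.1 to 19.7 RPKM in CCL21+RANK- TECs and 9.48 to 11.9 RPKM in CCL21-RANK+ TECs. Il23a, the specific subunit of interleukin 23, was at 24.9, 14.6 and 15.0 RPKM in CCL21-RANK+ TECs and at most 0.368 RPKM in the others. Against CCL21-RANK- TECs, edgeR and DESeq2 each called 0 relatives in CCL21+RANK- TECs, with 3 at an unadjusted p under 0.05 in edgeR, beside 8.02%, 9.73% and 25.1% of all genes. In CCL21-RANK+ TECs, 5 were called higher and 3 lower than in CCL21-RANK- TECs, where 14.4% and 15.1% of all genes were. The medians were -1.81, 0.19 (over 14 genes with more than 3 counts in a group) and 2.46, beside -0.11, 0 and 0.06 for all genes. The first and last of these medians include genes that passed the filter only through the CCL21-RANK+ libraries.

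Other products through which TECs support thymocytes were, like Il7 and Kitl, mostly lower in CCL21-RANK+ TECs. Of 10, edgeR called 9 higher in CCL21+RANK- TECs than in the CCL21-RANK+ population and 1 (the chemokine gene Ccl19) lower, with a median log2 fold change of 2.77, beside 15.4% of all genes each way and a median of -0.11. One of the 9 was Ccl21a, whose direction the sort on its reporter fixed. Dll4, the Notch ligand that commits progenitors to the T cell lineage, was at 58.5, 71.6 and 90.2 RPKM in CCL21+RANK- TECs, at 12.4, 12.3 and 11.1 RPKM in CCL21-RANK+ TECs and at 110 and 119 RPKM in CCL21-RANK- TECs. Cxcl12 and Ccl25, chemokines for progenitors, were at 82.3 to 87.0 RPKM and 131 to 167 RPKM in CCL21+RANK- TECs against 3.42 to 7.87 RPKM and 15.8 to 35.4 RPKM in CCL21-RANK+ TECs. All 8 cortical TEC markers, 4 of which (Psmb11, Prss16, Dll4 and Cxcl12) are also among these products, were called lower in CCL21-RANK+ TECs than in either other population. Their summed level was 223, 329 and 204 RPKM in CCL21-RANK+ TECs, against 3000, 2580 and 3010 RPKM in CCL21+RANK- TECs and against 2240 and 2420 RPKM in CCL21-RANK- TECs. Against CCL21-RANK- TECs, 2 of the 10 products were called higher and 1 lower in CCL21+RANK- TECs (median 0.15), and 2 were called higher and 8 lower in CCL21-RANK+ TECs (median -2.78), with Ccl21a among those higher in both cases. Over all genes these shares were 4.35%, 3.66%, 14.4% and 15.1%, with medians of 0 and 0.06.

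Transcription factors and response genes of the pathways that control the set were called in both directions. Of 18 tested, 7 had calls favouring CCL21+RANK- TECs while 4 favoured the CCL21-RANK+ population (median 0.37), beside 15.4% of all genes each way and a median of -0.11. Foxn1 was at 85.4, 93.2 and 105 RPKM in CCL21+RANK- TECs, at 54.5, 54.9 and 50.7 RPKM in CCL21-RANK+ TECs and at 82.2 and 85.4 RPKM in CCL21-RANK- TECs (log2 fold change 0.94 ± 0.11 and -0.77 ± 0.12 in the comparisons with CCL21-RANK+ TECs). Irf1, which mediates interferon responses, exceeded its CCL21-RANK+ level in CCL21+RANK- TECs by 1.46 ± 0.10 on the log2 scale. Stat5a, which transmits interleukin 7 signals, was at 40.6, 29.5 and 32.7 RPKM in CCL21-RANK+ TECs, at 7.96, 5.44 and 6.52 RPKM in CCL21+RANK- TECs and at 2.32 and 2.44 RPKM in CCL21-RANK- TECs. Hif1a was higher in CCL21+RANK- TECs than in the CCL21-RANK+ population (log2 fold change 0.82 ± 0.16), whereas the glycolytic genes Pgk1 and Ldha were called in the opposite direction (-0.90 ± 0.21 and -0.71 ± 0.21) and Slc2a1, Egln3 and Bnip3 were not called in any comparison. Against CCL21-RANK- TECs, 1 regulator (Stat5a) was called higher in CCL21+RANK- TECs (median 0.32), and 5 were called higher and 6 lower in CCL21-RANK+ TECs (median 0.11). Over all genes 4.35%, 14.4% and 15.1% were, with medians of 0 and 0.06.

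Many genes shared the pattern of Il7 and of Kitl across the 8 libraries. The genes with the highest Pearson correlation of log2 CPM (counts scaled to the library total, prior count 2) with Il7 were Pgm5, Tcp11l1, Sh3rf1, Tgfbrap1 and Bnc2, with r from 0.996 to 0.997. Those for Kitl were Fam49b, Clcn2, Nisch, Slc36a1 and Ift88, with r from 0.997 to 0.998. Of 11875 genes compared, 867 had r over 0.95 with Il7 and 1184 with Kitl. Slc36a1, an amino acid transporter gene, had mean levels of 46.4, 5.24 and 80.7 RPKM in CCL21+RANK-, CCL21-RANK+ and CCL21-RANK- TECs, beside 14.1, 3.03 and 20.6 RPKM for Kitl. Within the set, Il7 and Kitl correlated with each other (r = 0.92) and with Flt3l (0.88 and 0.90), Tslp with Il33 (0.92), and Kitl with Tslp and Il33 at -0.89 and -0.90. These values describe 8 libraries in 3 groups, so differences between group means enter the correlations, and their part in them was not tested.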

How the data were processed

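Libraries were prepared from total RNA with a kit named differently by the labels (NEBNext Ultra II Directional) and by the methods of the study (TruSeq Stranded Total RNA). The authors deposited RSEM expected counts per gene, neither normalized nor filtered, and the submitters' processing notes name bcl2fastq 2.20, Trimmomatic, STAR 2.5.1, RSEM 1.3.1 and mm10. RSEM divides reads that match several genes, which bears on overlapping genes, and whether its counting used strand is not given in the sources used here. All 55450 genes matched GENCODE M21 (GRCm38), which supplied positions and exon lengths.

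Rounded to whole numbers, the expected counts were fitted in edgeR 4.0.16 (R 4.3.3) with TMM scaling, filterByExpr and the quasi-likelihood test, with 3 group means fitted to all 8 libraries and Benjamini-Hochberg adjustment over 21451 genes. The study's CLC Genomics Workbench was not used here, and its thresholds defined a call (adjusted p under 0.05, fold change over 1.5, mean RPKM over 1). RPKM used the library total and the summed exon length. The common biological coefficient of variation was 0.326. Set against counting noise alone, the chi-square per gene between replicates was at least 84.9. A sum of 3 counts was taken as the floor of a group. The fit was tested on simulated data. Alternatives were DESeq2 1.42.0 (size factors and Wald test), upper-quartile scaling, other filters and thresholds, the compared libraries alone, a replicate block, removal of Gm26917 and Gm42418 (6.89% to 19.4% and 1.47% to 10.7% of the counts), and omission of each library. Omission of both reporter-positive libraries numbered 1 was chosen after Vegfa was seen to be highest in them.

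All 10 genes are named. From the related lists, the text names receptors, genes over 1 RPKM in a group and the largest called changes. The 10 genes and the lists of receptors, processing genes, relatives, other TEC products, TNF ligands, regulators and cell type markers were chosen with earlier results of these data known. A gene listed among the regulators as Ca9 had no match by that symbol, and the values of another regulator are not reported here. Figures were drawn with matplotlib 3.10.9.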

Additional observations from a re-analysis of the deposited data

How the results depend on the processing

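Of 480 log2 fold changes of single genes of the set under the alternatives, 448 kept their direction and their side of the call, 10 lost the call, 18 gained it and 4 changed sign. The 480 leave out the fits with other thresholds. Tslp and Il18 lay under the 1 RPKM of a call, so their side of the call was fixed in advance and only their direction could change. Il7, Kitl and Flt3l kept every call against CCL21-RANK+ TECs under every alternative run. By the adjusted p alone, the genes called rose to 11516 (CCL21+RANK- against CCL21-RANK+) and 10501 (CCL21-RANK+ against CCL21-RANK-), and the called genes of the set to 8 in the former, Tslp and Il18 included. With a fold change over 2, 1030 genes were called for CCL21+RANK- against CCL21-RANK- TECs. Leaving out each library in turn gave 657 to 2066 genes there, 3 to 6 called genes of the set between CCL21+RANK- and CCL21-RANK+ TECs, and 0 to 1 between CCL21+RANK- and CCL21-RANK- TECs. Where a lone CCL21-RANK- library remained, it was assumed to vary like the other groups. The latter count was 1 (Csf1) with the DESeq2 Wald test, without the filter, with at least 10 counts in every library, with only the compared libraries, and without both reporter-positive libraries numbered 1. Vegfa lost its call with the DESeq2 Wald test (adjusted p = 0.0713) and Csf1 with at least 10 counts in every library (adjusted p = 0.054). Lif passed the call against CCL21+RANK- TECs with the DESeq2 Wald test (-1.46), with the other filters (-1.42 and -1.51), with only the compared libraries (-1.38), and on leaving out the third CCL21+RANK- library (-1.83) or either library of CCL21-RANK- TECs (-1.36 and -1.37). Il33 passed it against CCL21+RANK- and CCL21-RANK- TECs once Gm26917 and Gm42418 were removed (-1.30 and 1.46), since its RPKM then exceeded 1. Over the omissions of a library, Il33 between CCL21+RANK- and CCL21-RANK- TECs ranged from -0.00304 to 0.232 and Csf1 between CCL21-RANK+ and CCL21-RANK- TECs from -0.218 to 0.308. Csf1 was also -0.214 without both libraries numbered 1. The cause of these changes was not tested. The median log2 fold change of all genes moved from 0.06 to 0.20 between CCL21-RANK+ and CCL21-RANK- TECs with DESeq2 size factors, with no change in a call of the set. With the replicate number as a block, 6616, 1913 and 6324 genes and 5, 0 and 4 genes of the set were called, and no call of the set changed. The main fit did not take the numbers as pairs. Deviations from the group mean in CCL21+RANK- libraries and in CCL21-RANK+ libraries of the same number correlated at 0.126, 0.0485 and 0.0707. Among CCL21-RANK+ libraries, each CCL21+RANK- library correlated best with its own number. These values do not decide whether libraries of the same number were sorted together. Tslp and Il18 rest on low counts at this depth.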

Other observations

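Ligands of the tumour necrosis factor superfamily act beside the cytokines above. Of 8 genes tested, edgeR called 3 higher in CCL21-RANK+ TECs than in the CCL21+RANK- population (Ltb, Lta and Tnfsf9), where 15.4% of all genes were, with a median log2 fold change of -2.53, beside -0.11 for all genes. Lta passed the filter on low counts only through the CCL21-RANK+ libraries. Its calls toward CCL21-RANK+ TECs thus give no test of that direction, and the median includes it. Tnfsf10 was at 1.61, 1.19 and 1.19 RPKM in CCL21-RANK+ TECs against 1.3, 1.2 and 1.14 RPKM, and Tnfsf15 at 0.834, 0.912 and 0.433 RPKM against 0.946, 0.857 and 1.23 RPKM. Ltb, which encodes lymphotoxin beta, was at 28.5, 20.5 and 19.8 RPKM in CCL21-RANK+ TECs and at most 0.455 RPKM in the other 5 libraries. Tnfsf11, which encodes the ligand of RANK, stayed under 1 RPKM in every library, with 0.484, 0.428 and 0.565 RPKM in CCL21-RANK+ TECs. Tnfsf10, a death receptor ligand gene, was the gene called higher in CCL21+RANK- TECs than in the CCL21-RANK- population (log2 fold change 2.34 ± 0.28), where 4.35% of all genes were. Against CCL21-RANK- TECs, 4 were called higher in CCL21-RANK+ TECs, Tnfsf10 among them, beside 14.4% of all genes.

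Summed levels of several marker lists differed between populations, and sums were not tested. The summed RPKM of 8 mesenchymal genes was 52.8, 27.2 and 33.1 in CCL21-RANK+ TECs and at most 4.35 elsewhere, with Col1a1 the most abundant in CCL21-RANK+ TECs. Of these 8 genes 5 were called higher in CCL21-RANK+ TECs than in the CCL21+RANK- population, beside 15.4% of all genes, while Twist1 was at 0.15, 0 and 0.0575 RPKM against 1.28, 0.814 and 0.769 RPKM and Pdgfra at 0.122, 0.0517 and 0.0303 RPKM against 0.262, 0.171 and 0.154 RPKM. The sum of 5 B cell genes was 11.4, 5.71 and 6.47 in CCL21-RANK+ TECs and at most 0.904 elsewhere, with Cd79b the most abundant. The sum of 6 endothelial genes was 4.25, 2.36 and 1.90 there and at most 0.467 elsewhere, with Tek the most abundant in CCL21-RANK+ TECs. The sum of 6 tuft cell genes was 34.4, 15.3 and 13.5 there, 12.8 to 13.9 in CCL21+RANK- TECs and 4.74 and 6.16 in CCL21-RANK- TECs. Of the 5 tuft cell genes tested, 3 were called higher in CCL21-RANK+ TECs than in the CCL21+RANK- population and 2 lower, beside 15.4% of all genes each way. The 2 were Dclk1 and the tuft cell regulator Pou2f3, which was at 3.67, 2.93 and 2.94 RPKM against 10.8, 9.83 and 10.2 RPKM. The sum of 6 erythroid genes differed within groups, at 6.61, 164 and 59.4 in CCL21+RANK- TECs, 184, 285 and 300 in CCL21-RANK+ TECs and 453 and 57.1 in CCL21-RANK- TECs. The part of these transcripts in the values of the 10 genes was not tested.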
